A study of Mus musculus with 11 samples.

Results

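Under the name of mitochondrial folate and glycine cleavage enzymes, 10 genes are described, among them the carrier gene Slc25a32. They were taken by name from what is known of the pathway, with earlier results of these data known. Each was found in the count tables by its Ensembl identifier, 10 of 38293 identifiers. Dld, Sardh and Dmgdh, which also act in this pathway, were kept in lists of partner genes. The study asked whether a high dose of folic acid (FA) given to dams before conception changes brain function in their offspring, and RNA of the whole hippocampus of 11 wildtype F1 mice aged 14 weeks was sequenced. The F1 strain is 129S6/SvEv x C57BL/6J. Dams of the control group (CD, 6 mice, 3 male and 3 female) ate 2.3 mg FA per kg diet and dams of the supplemented group (FD, 5 mice, 2 male and 3 female) ate 40 mg FA per kg diet. Both groups of dams were on the control diet from mating onwards, so no mouse analysed here ate the supplemented diet itself. The labels do not give litters, and p-values therefore measure the spread between mice, some of which may share a dam.

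Cells run folate chemistry in the cytosol and, in parallel, in mitochondria. In mitochondria, serine and glycine donate single-carbon units to tetrahydrofolate, and these units are oxidised stepwise and released as formate, which feeds nucleotide and methionine synthesis in the cytosol. The glycine cleavage system, an assembly of loosely bound proteins in the mitochondrial matrix, breaks glycine down for this purpose. In brain it is best known from astrocytes, and its loss causes nonketotic hyperglycinaemia.

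The libraries held between 11737554 and 44447006 counts on genes. Values per mouse are CPM, counts scaled to the size of the library with TMM factors, and with these depths 3 counts correspond to between 0.0675 and 0.256 CPM before scaling. Markers of hippocampal fields were present in each mouse, with Zbtb20 between 210.4 and 453.8 CPM and Neurod6 between 262.9 and 318.9 CPM. The choroid plexus marker Ttr ranged from 3.35 to 54.7 CPM. In such bulk RNA, fewer cells of a type and less RNA per cell cannot be told apart.

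All 10 genes were counted in each mouse, with between 32 and 2108 counts per gene and mouse. Levels of different genes were compared per length only, as TPM, which scale counts to the length of the gene and to the library, with merged exons as the length. Gcsh, the lipoyl-carrying H-protein of glycine cleavage, stood at 98.1 ± 4.95 TPM (SD, n = 11) and was the highest of the 10. Amt, the aminomethyltransferase or T-protein, and Gldc, the glycine decarboxylase or P-protein, followed at 31.3 ± 3.30 and 30.9 ± 1.49 TPM (SD, n = 11). The serine hydroxymethyltransferase gene Shmt2 stood at 22.0 ± 1.33 TPM (SD, n = 11). The 3 proteins particular to glycine cleavage thus headed the order, above each enzyme of the folate steps.

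Lower in the order came Mthfd1l, the synthetase that releases formate, at 14.6 ± 1.57 TPM, and Mtfmt, which formylates the initiator tRNA of mitochondrial translation, at 14.0 ± 1.71 TPM (SD, n = 11 each). Mthfd2, a methylenetetrahydrofolate dehydrogenase and cyclohydrolase, had 7.70 ± 0.876 TPM, and Slc25a32, the carrier that brings folate into mitochondria, had 7.37 ± 1.17 TPM (SD, n = 11 each). Aldh1l2, which burns formyl groups to CO2, had 3.48 ± 0.433 TPM and Mthfd2l, the isozyme of Mthfd2, 1.70 ± 0.267 TPM (SD, n = 11 each). Of the 9 neighbouring pairs in this order, 6 were ordered the same way in 11 of 11 mice (exact sign-flip permutation test, two-sided, p = 0.000977, the smallest that 11 mice allow, and 0.00146 adjusted over the 9 pairs). For the other 3 pairs no difference beyond the spread was found. These were Amt over Gldc, 1.01-fold (p = 0.796, exact sign-flip permutation test), Mthfd1l over Mtfmt, 1.05-fold (exact p = 0.361), and Mthfd2 over Slc25a32, 1.05-fold (exact p = 0.412).

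**Figure D1:**
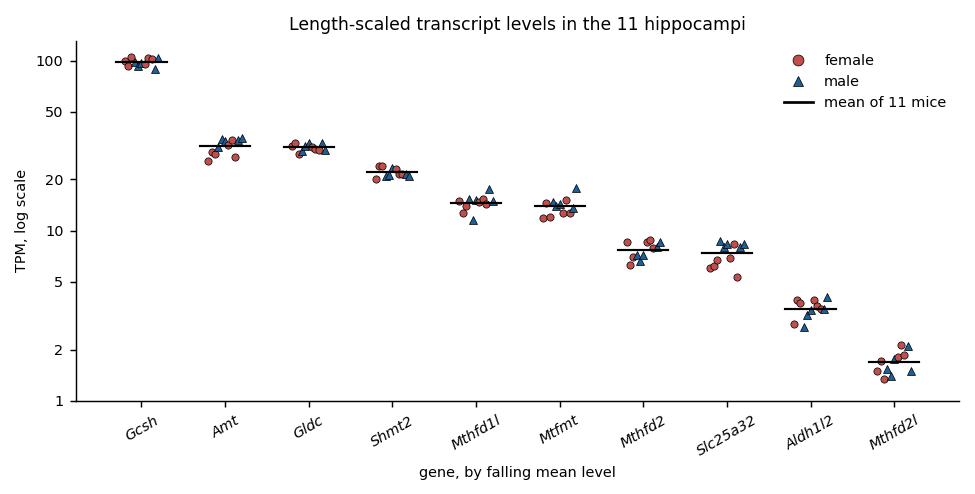
Length-scaled levels (TPM on a log axis) of the 10 genes in the 11 hippocampi, with a point for each mouse and a line at the mean. Gcsh stood alone at the top at 98.1 TPM, Mthfd2l was lowest at 1.70 TPM, and Amt overlapped Gldc, Mthfd1l overlapped Mtfmt and Mthfd2 overlapped Slc25a32.

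The order depends on which length a gene is given. With the longest annotated transcript as the length, Gldc at 39.1 TPM lay above Amt at 28.7 TPM in 11 of 11 mice, and Mtfmt lay above Mthfd1l. With the longest coding transcript, a choice added after seeing the data, Mthfd2l at 3.88 TPM also lay above Aldh1l2 at 3.22 TPM. Gcsh held the first place under each of the 3 lengths. Counts of Aldh1l2 carry a further limit, since 1056 bp, or 14.1% of its merged exons, are shared with exons of D10Wsu102e on the opposite strand, and whether reads were counted by strand is not given in the sources used here. Shmt2 shares 32 bp of exon with Ndufa4l2 in the same way. Of the 6 genes in the count files that match a member over at least 200 bp at 90% identity, D10Wsu102e, through this overlap, had up to 1446 counts in a mouse, and the other 5, mostly processed pseudogenes, had at most 4.

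The genes lie on 7 chromosomes of GRCm38, Shmt2, Mthfd1l and Aldh1l2 on chromosome 10, Amt and Mtfmt on chromosome 9, and Mthfd2l, Mthfd2, Gcsh, Slc25a32 and Gldc on chromosomes 5, 6, 8, 15 and 19. Promoter windows of RefSeq (GRCm38.p6), from 250 bases before to 50 bases after the start given by RefSeq, were at hand for 8 of the 10. For Mthfd2 this start differs from that of the annotation used for names and lengths. There the gene runs from 83305691 to 83325908 on the minus strand, so that its window lies within the locus. They were searched on both strands for 3 motifs, the E-box CACGTG, the CCAAT box and the TATA box TATAAA, of which no 2 overlap in these windows. The windows of Mthfd2 and Mthfd2l are shown because both genes encode enzymes of the same step. Capitals mark the matches, CCAAT or its reverse complement.
Mthfd2, chr6:83317555-83317854, minus strand: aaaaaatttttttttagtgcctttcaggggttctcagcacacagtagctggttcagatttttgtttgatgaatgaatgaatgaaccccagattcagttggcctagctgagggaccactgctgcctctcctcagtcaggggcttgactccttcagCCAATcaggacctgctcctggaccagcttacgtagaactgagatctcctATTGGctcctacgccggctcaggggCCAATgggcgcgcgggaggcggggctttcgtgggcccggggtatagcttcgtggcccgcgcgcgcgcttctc
Mthfd2l, chr5:90930946-90931245, plus strand: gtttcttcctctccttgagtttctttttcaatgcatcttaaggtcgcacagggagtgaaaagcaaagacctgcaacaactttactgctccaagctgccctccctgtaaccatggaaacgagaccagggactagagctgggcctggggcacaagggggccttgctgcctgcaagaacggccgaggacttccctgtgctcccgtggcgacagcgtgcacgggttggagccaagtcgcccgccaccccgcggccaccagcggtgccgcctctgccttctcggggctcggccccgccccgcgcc
The Mthfd2 window held 3 CCAAT boxes, as 3.37% of all 32851 windows of 300 bases held 3 or more, and the Mthfd2l window held none, as 62.6% of all windows did. The E-box was in 0 of the 8 windows and in 7.15% of all, and the TATA box in 0 of 8 and in 13.6% of all. A CCAAT box was in 4 of the 8 windows (Mthfd2, Gldc, Amt and Gcsh) and in 37.4% of all.

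None of the 10 genes passed the test between FD and CD hippocampi. In the edgeR quasi-likelihood test with Benjamini-Hochberg adjustment over the 20589 genes tested, 0 of the 10 passed the threshold of 0.1, beside 0.068% of all genes, and each had an adjusted p of 1. Mice were also paired by sex and replicate number as a block, a match across diets that the labels do not state. This leaves out CD male 3 for want of a partner. With the block 23 of all genes were called, beside 14 in all mice and 4 in the same 10 mice without the block. Again 0 of the 10 members were called. At an unadjusted p under 0.05, 0 of the 10 passed, beside 2.59% of all genes, and DESeq2 also called 0 of the 10. Under other settings Mthfd2l had an unadjusted p (edgeR) of 0.0438 with RLE size factors, 0.0382 with at least 10 counts in every mouse, 0.0426 with the block, 0.037 without CD male 3 and 0.0142 without FD male 2, with adjusted p of 0.723 or more in each. FD means lay above CD means for 6 genes and below for 4, with a median log2 fold change of 0.06 over the 10 and -0.004 over all genes. The ranges of the groups overlapped for each of the 10 genes, whereas they did not overlap for 0.505% of all genes.

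**Figure D2:**
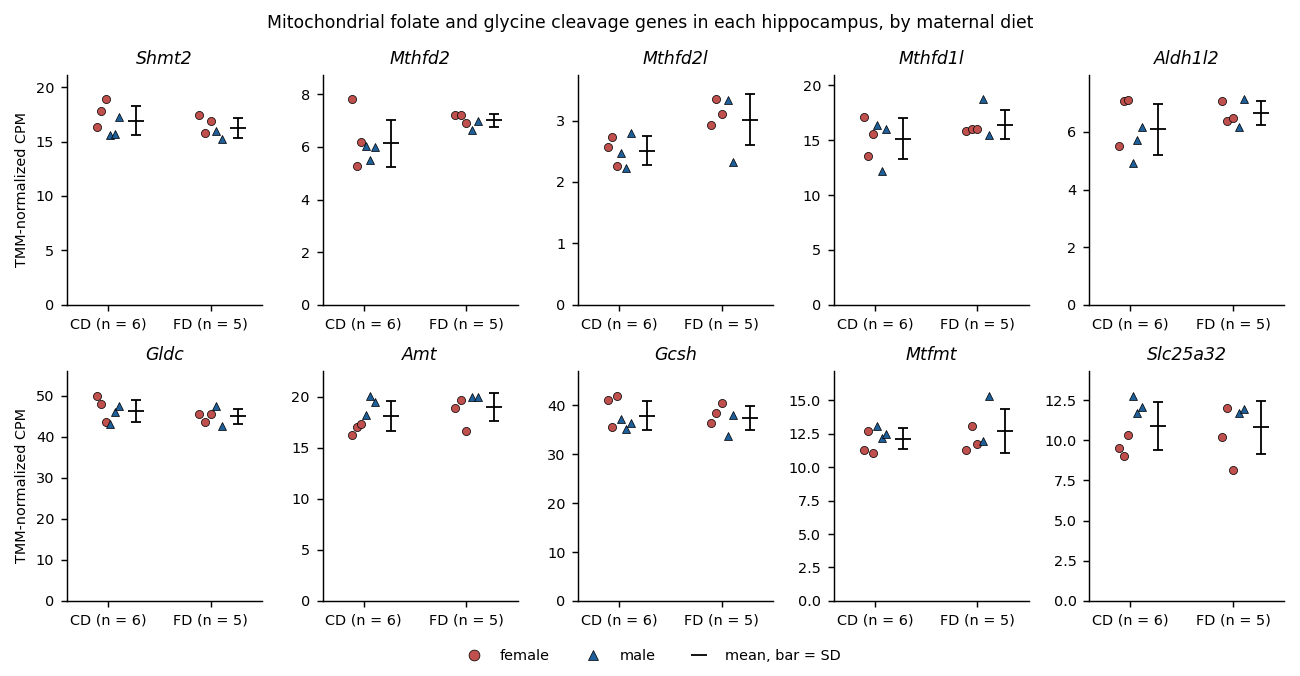
TMM-normalized CPM of each gene in each mouse by maternal diet, with circles for females, triangles for males, and the mean and SD beside the points. The ranges of the 6 CD and 5 FD mice overlapped in all 10 panels, and Mthfd2l had 4 of 5 FD mice above its highest CD mouse at 2.80 CPM.

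Among the enzymes of the dehydrogenase and cyclohydrolase step, the low-abundance isozyme Mthfd2l came closest to a difference. CD mice ranged from 2.22 to 2.80 CPM with a median of 2.52 CPM. FD mice had 2.94, 3.35 and 3.11 CPM in females 1, 2 and 3 and 3.33 and 2.33 CPM in males 1 and 2. Thus 4 of the 5 FD mice exceeded the highest CD mouse, and FD male 2 lay within the CD range. The log2 fold change was 0.26 ± 0.12 (SE, edgeR, unadjusted p = 0.0505), with a 95% confidence interval from -0.05% to 42.7%. Tested on its own, the difference of 0.25 in mean log2 CPM had p = 0.0476 (exact permutation test over 462 splits, two-sided), the only one of 10 such tests under 0.05. With each mouse left out this exact p was between 0.00952 and 0.0905, and under 0.05 only without CD female 2, CD male 3 or FD male 2. Paired by sex and replicate number, the FD mouse was higher in 5 of 5 pairs, as were 3.53% of all genes (p = 0.0625 by exact permutation of the signs, which cannot be smaller with 5 pairs). Counts of Mthfd2l were low, between 32 and 124 per mouse, and counting error alone amounts to a coefficient of variation of 13.8%, beside the 14.9% observed over the 11 mice.

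Mthfd2 is the isozyme known from embryonic and dividing cells. CD mice ranged from 5.29 to 7.82 CPM with a median of 6.03 CPM. FD females 1, 2 and 3 had 7.24, 7.23 and 6.91 CPM, and FD males 1 and 2 had 6.66 and 6.999 CPM. The 5 FD values lay within the CD range, above every CD mouse but CD female 1, which held the top of that range. The log2 fold change was 0.17 ± 0.10 (SE, edgeR, unadjusted p = 0.0993) and the exact permutation p of the gene alone was 0.0649. Without CD female 1 the log2 fold change was 0.26 (edgeR, unadjusted p = 0.00722, adjusted p = 1). The count ratio of Mthfd2 to Mthfd2l was 2.42 in CD and 2.33 in FD mice (exact permutation p = 0.697, adjusted p over 8 ratios 0.863).

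For Shmt2, the entry of serine carbon, CD mice ranged from 15.6 to 18.9 CPM with a median of 16.8 CPM. FD mice lay between 15.2 and 17.5 CPM, and the log2 fold change of -0.05 ± 0.07 (SE, edgeR, unadjusted p = 0.4928) had an interval from -12.8% to 7.1%. Aldh1l2 ranged from 4.91 to 7.12 CPM in CD and from 6.19 to 7.14 CPM in FD mice, with a log2 fold change of 0.15 ± 0.10 (SE, edgeR, unadjusted p = 0.165) and an interval from -4.68% to 29.4%. FD mice lay above the CD median in 5 of 5 cases for Aldh1l2 and in 2 of 5 for Shmt2. Mtfmt ranged from 11.1 to 13.0 CPM in CD and from 11.3 to 15.3 CPM in FD mice (log2 fold change 0.05 ± 0.09 SE, edgeR, unadjusted p = 0.556). The upper end of Mtfmt in the FD group was FD male 2, and the log2 fold change without it was -0.02.

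Mthfd1l, which makes formate from formyltetrahydrofolate, ranged from 12.2 to 17.2 CPM in CD mice with a median of 15.8 CPM. FD females 1, 2 and 3 had 15.9, 16.0 and 16.1 CPM, and FD males 1 and 2 had 18.8 and 15.5 CPM. FD male 1 was the single FD mouse above the CD range. The log2 fold change was 0.11 ± 0.09 (SE, edgeR, unadjusted p = 0.235), with an interval from -5.27% to 22.9%.

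The mean ratio of Mthfd1l to Mthfd1, which encodes the cytosolic enzyme with the same synthetase activity, was higher in FD mice. Whether this difference passed the threshold depended on which mice were included. The members were chosen with earlier results of these data known, which an adjustment over the 8 ratios does not take into account. A ratio of counts within a library does not depend on how the libraries are scaled, and 8 ratios of enzyme pairs were compared. The ratio of Mthfd1l to Mthfd1 counts was 0.345, 0.292 and 0.358 in CD males 1, 2 and 3 and 0.335, 0.304 and 0.332 in CD females 1, 2 and 3. In FD mice it was 0.425 and 0.376 in males 1 and 2 and 0.369, 0.349 and 0.359 in females 1, 2 and 3. Of the 5 FD mice, 4 lay above the highest CD mouse, and FD female 2 lay below CD male 3. The mean log2 ratio was -1.61 ± 0.11 (SD, n = 6) in CD and -1.42 ± 0.11 (SD, n = 5) in FD mice, a difference of 0.20 (exact permutation test, two-sided, p = 0.00866, adjusted p over the 8 ratios 0.0693). Neither gene passed the test alone, Mthfd1l with a log2 fold change of 0.11 and Mthfd1 with -0.08 (edgeR, unadjusted p = 0.235 and 0.193). The difference was between 0.15 and 0.22 with each mouse left out, but the adjusted p was then between 0.0635 and 0.267 and under 0.1 only without CD male 3 or without FD female 2, so that leaving out any of the other 9 mice ended the call. Paired by sex and replicate number it was 0.22 (p = 0.0625 by exact permutation of the 5 signs, adjusted p = 0.5). Since this p is the smallest that 5 pairs can give, the paired test cannot decide whether the call holds.

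**Figure D3:**
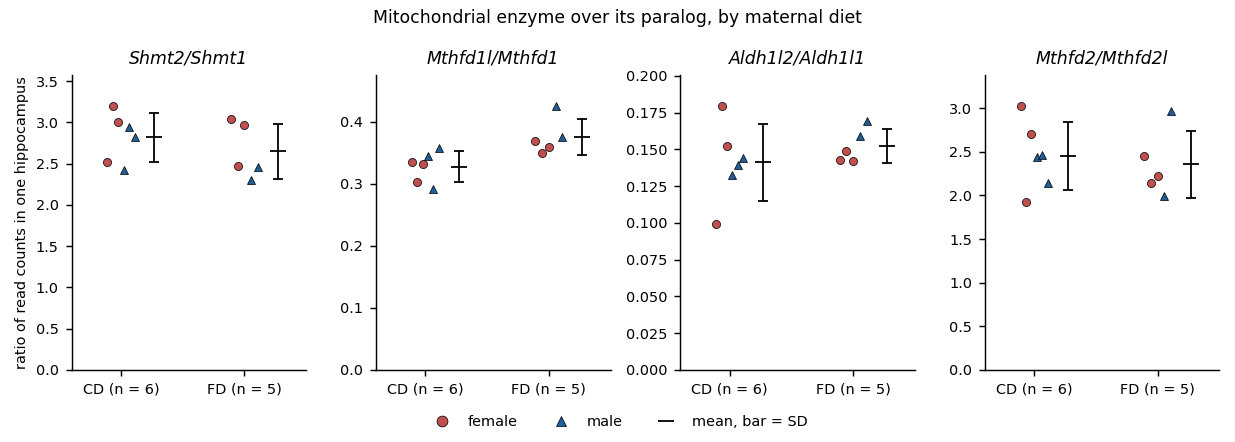
Ratio of read counts of a mitochondrial enzyme to its paralog in each hippocampus (Shmt2 to Shmt1, Mthfd1l to Mthfd1, Aldh1l2 to Aldh1l1, all cytosolic partners, and Mthfd2 to its mitochondrial isozyme Mthfd2l), by maternal diet, with the mean and SD beside the points. The ratio of Mthfd1l to Mthfd1 lay above 0.358, the highest CD value, in 4 of the 5 FD mice, while the groups overlapped widely in the other panels.

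The other 7 ratios had adjusted p of 0.755 or more between the diets (exact permutation tests). Shmt2 was counted 2.81 times as often as the cytosolic Shmt1 in CD and 2.63 times in FD mice (adjusted p = 0.755, exact permutation test). Per length, Shmt2 stood 3.42-fold above Shmt1, with a range from 2.89 to 4.02 over the 11 mice. Aldh1l2, by contrast, stood at 0.0869 of the per-length level of the cytosolic Aldh1l1, an astrocyte marker, and Mthfd1l at 0.348 of that of Mthfd1. Mitochondrial transcripts thus outnumbered their cytosolic counterpart for the serine step and fell short of it for the formate and CO2 steps in 11 of 11 mice.

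The intervals of the 3 glycine cleavage genes between the diets included 0, as did those of all 10 genes. Gldc ranged from 43.2 to 50.1 CPM in CD and from 42.8 to 47.5 CPM in FD mice (log2 fold change -0.04 ± 0.05 SE, edgeR, unadjusted p = 0.434, interval -10.4% to 5.05%). Amt ranged from 16.3 to 20.1 CPM in CD and from 16.6 to 19.9 CPM in FD mice (log2 fold change 0.07 ± 0.07 SE, edgeR, unadjusted p = 0.392, interval -6.14% to 16.6%). Gcsh ranged from 35.2 to 42.0 CPM in CD and from 33.8 to 40.4 CPM in FD mice (log2 fold change -0.02 ± 0.06 SE, edgeR, unadjusted p = 0.786, interval -10.1% to 8.57%). Gldc was the steadiest of the 10, with a coefficient of variation of 5.10% over the 11 mice. Its counting error, which falls as counts rise, was also the smallest of the 10, at 3.35%. For comparison, the 9264 genes with a mean between 2 and 60 CPM, a set not matched to Gldc in level, had a median coefficient of variation of 9.86%.

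Slc25a32 had CD values from 9.05 to 12.8 CPM and FD values from 8.16 to 12.03 CPM, and the log2 fold change was -0.04 ± 0.11 (SE, edgeR, unadjusted p = 0.749). Its interval ran from -17.5% to 15.2%.

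**Figure D4:**
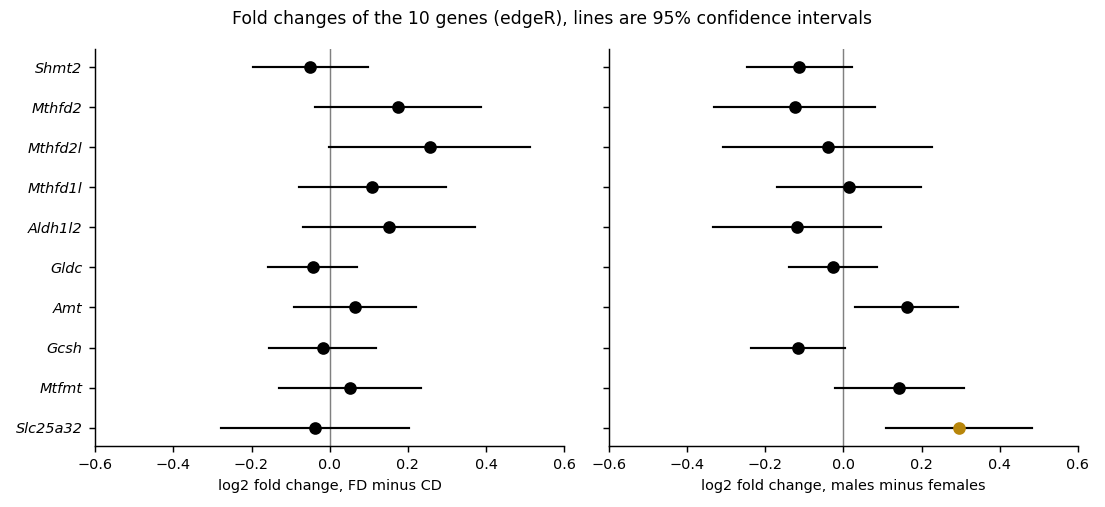
Log2 fold changes of the 10 genes from the edgeR fits with 95% confidence intervals as lines, FD minus CD mice on the left and males minus females on the right. All 10 intervals on the left cross 0, and on the right Slc25a32 at 0.30 is the only gene past the adjusted threshold, drawn in a lighter colour.

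Between the sexes, with diet in the model, 1 of the 10 genes passed the threshold, beside 6.11% of all genes. This gene was Slc25a32. Males 1, 2 and 3 of the CD group had 12.8, 11.7 and 12.1 CPM and FD males 1 and 2 had 11.7 and 11.95 CPM. CD females 1, 2 and 3 had 9.55, 9.05 and 10.3 CPM and FD females 1, 2 and 3 had 10.2, 12.03 and 8.16 CPM. Of the 6 females, 5 lay below each of the 5 males, and FD female 2 lay among the males, so that the sexes overlapped, as they did for each of the 10 genes and for all but 1.78% of all genes. The log2 difference, males minus females, was 0.30 ± 0.09 (SE, edgeR, adjusted p = 0.0897), or 12.1 against 9.89 CPM.

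This call depended on which mice were included. With each mouse left out the log2 difference was between 0.25 and 0.35, and the unadjusted p (edgeR) between 0.0004 and 0.0116. The adjusted p (edgeR) was between 0.0208 and 0.201, under 0.1 only without CD female 2 or without FD female 2. Leaving out any of the other 9 ended the call. The adjusted p was 0.236 in CD mice alone (edgeR) and 0.0322 with DESeq2. Over all genes, the 1257 sex calls ranged from 18 without CD male 1 to 3244 without CD female 2 and were 5 in CD mice alone. The share of reads outside annotated genes ranged from 8.95% to 11.03% in males and from 7.01% to 10.5% in females, and FD female 2, the female with the male-like value, had the highest share of the females. Oligodendrocyte markers summed to between 3420 and 4260 CPM in males and between 3506 and 5534 CPM in females, and all 5 of them had a log2 difference below 0. The part of these measures in the sex difference of Slc25a32 was not tested.

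**Figure D5:**
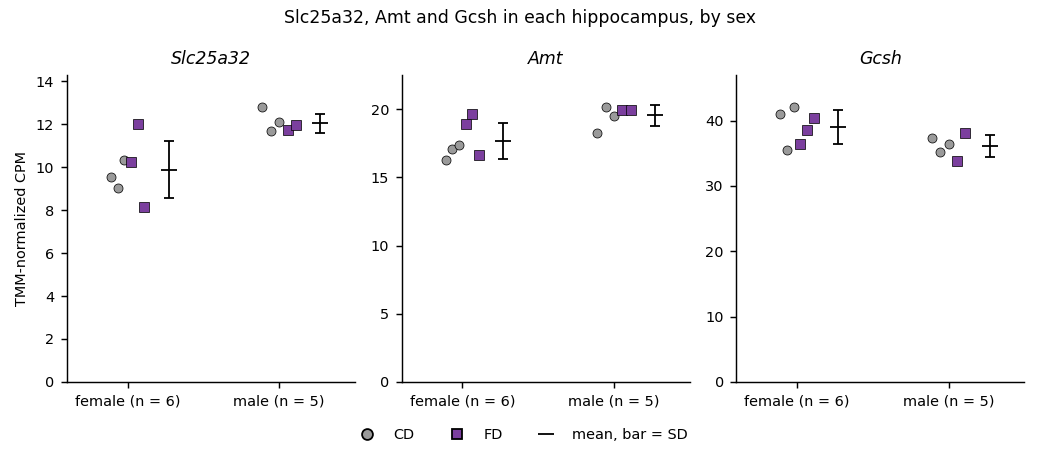
TMM-normalized CPM of Slc25a32, Amt and Gcsh in each hippocampus by sex, with circles for CD and squares for FD mice and the mean and SD beside the points. For Slc25a32, 1 FD female at 12.03 CPM lay among the males, and the sexes overlapped for Amt and Gcsh as well.

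Amt and Gcsh did not pass the test between the sexes and lay in opposite directions. Amt had 19.6 ± 0.772 CPM (SD, n = 5) in males and 17.7 ± 1.33 CPM (SD, n = 6) in females (log2 difference 0.16 ± 0.06 SE, edgeR, adjusted p = 0.155). Gcsh had 36.2 ± 1.69 CPM (SD, n = 5) in males and 39.0 ± 2.61 CPM (SD, n = 6) in females (log2 difference -0.12 ± 0.06 SE, edgeR, adjusted p = 0.265). The ratio of Amt to Gcsh was 0.26 higher in males on the log2 scale (exact permutation p = 0.0281, adjusted p over 8 ratios 0.225). The remaining 7 members had log2 differences between -0.12 and 0.14, with adjusted p of 0.321 or more (edgeR).

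No difference of the diet effect between the sexes was detected for any of the 10 genes. The interaction term was called for 0 of 10 members (edgeR), as for 0% of the 20589 genes, of which 1.9% had an unadjusted p under 0.05, and DESeq2 called 0 genes with 119 at an unadjusted p under 0.05. In females, Mthfd2l had 2.52 ± 0.238 CPM in CD and 3.13 ± 0.209 CPM in FD mice (SD, n = 3 each), and in males 2.50 ± 0.289 CPM (SD, n = 3) and 2.83 ± 0.706 CPM (SD, n = 2). The interval of the interaction for Mthfd2l ran from -0.67 to 0.45 on the log2 scale, so that a difference between the sexes as large as the diet difference itself was not detectable.

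Of the 10 genes' 45 pairs, 20 had a positive Pearson correlation of log2 CPM, with a median r of -0.08 and a range from -0.63 to 0.80, and 0 pairs had an adjusted p under 0.1 (permutation tests with 100000 resamples). The closest pair was Amt with Slc25a32 (n = 11, r = 0.80, Spearman rho = 0.58, permutation p = 0.00388 and 0.0653, adjusted p = 0.175 and 0.603). Their r was 0.69 without the 2 mice farthest from the median of Amt and 0.60 with values centred within each sex. Amt and Gcsh, partners in glycine cleavage, had r = -0.63 and rho = -0.62 (permutation p = 0.0401 and 0.0475, adjusted p = 0.451 and 0.603), and r was -0.39 without the 2 farthest mice and -0.41 within sexes. Mthfd2 and Mthfd1l had r = 0.66 and rho = 0.41 (permutation p = 0.0227 and 0.215, adjusted p = 0.451 and 0.759). Their r over all mice fell to 0.13 without the 2 mice farthest from the median of Mthfd2. With all mice kept it was 0.70 within sexes, and in the 6 females it was 0.95. Shmt2 and Mtfmt had r = -0.62 and rho = -0.66 (permutation p = 0.0352 and 0.0301, adjusted p = 0.451 and 0.603), with r of -0.68 without the 2 farthest mice and -0.47 within sexes.

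Of 11527 other genes that averaged 5 CPM or more, those whose log2 CPM followed a member most closely over the 11 mice were other genes than the members themselves. For Shmt2 they were Dazap1 (r = 0.97) and Tpra1 (r = 0.95), for Mthfd2 Rarb (r = 0.89) and the pseudogene Gm7701 (r = 0.87), for Mthfd1l Dtx2 (r = 0.91) and Frmd5 (r = 0.88), and for Aldh1l2 mt-Nd5 (r = 0.84) and Tjap1 (r = 0.81). For Gldc they were Tmem177 (r = 0.95) and Adgrg1 (r = 0.90), for Amt Fat3 and Hip1 (r = 0.97 each), and for Mtfmt Ccar1 (r = 0.96) and Rap1b (r = 0.95). For Gcsh they were ENSMUSG00000074661 (r = 0.96), which has no name in the annotation used, and Micu2 (r = 0.95), and for Slc25a32 Ice2 (r = 0.91) and Gnl2 (r = 0.90). These values describe 11 points that share libraries and were picked as the highest of many, and no test is attached to them.

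Genes around the pathway passed no test of maternal diet either. Of 34 further genes in 7 lists, 0 passed the threshold for diet, beside 0.068% of all genes. At an unadjusted p under 0.05 (edgeR) there were 0 of them, beside 2.59% of all genes. A log2 fold change above 0 was found for 17, with a median of -0.002 over the 34. The 9 cytosolic folate genes had a median log2 fold change of -0.01, with the smallest p for Mthfd1 (-0.08 ± 0.06 SE, edgeR, unadjusted p = 0.193) and the folate polyglutamating Fpgs (-0.08 ± 0.08 SE, edgeR, unadjusted p = 0.427). Among the 5 genes of serine synthesis and mitochondrial serine import, Sfxn3 had -0.07 ± 0.05 (SE, edgeR, unadjusted p = 0.192) and Psat1, the phosphoserine aminotransferase, -0.04 ± 0.07 (SE, edgeR, unadjusted p = 0.501). In the 3 genes of glycine transport, the mitochondrial carrier Slc25a38 had -0.10 ± 0.07 (SE, edgeR, unadjusted p = 0.15) and the neuronal transporter Slc6a5, listed near its detection limit at 0.178 CPM, had an unadjusted p of 0.176.

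The 4 partners that lipoylate or reoxidise the H-protein had log2 fold changes between -0.01 and 0.03, with Lias, the lipoyl synthase, at 0.03 (edgeR, unadjusted p = 0.563) and Lipt1 at 0.03 (edgeR, unadjusted p = 0.788). The dehydrogenase genes Sardh and Dmgdh, whose products pass carbon from methylated glycines to folate, had -0.07 and 0.05 (edgeR, unadjusted p = 0.486 and 0.835). Of the 3 genes that handle initiator methionine in mitochondria, Mars2 had 0.09 and Pdf 0.17 (edgeR, unadjusted p = 0.327 and 0.383). Among 8 genes known as targets or partners of the stress factor ATF4, which also drives Mthfd2 and Shmt2, Asns had -0.09 (edgeR, unadjusted p = 0.151) and Atf4 itself -0.05 (edgeR, unadjusted p = 0.302).

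Between the sexes 0 of the 34 genes passed the threshold, with 7 at an unadjusted p under 0.05, 6 of them lower in males, beside 20.3% of all genes. The smallest were Aldh1l1 at -0.22 ± 0.07 (SE, edgeR, adjusted p = 0.109), Phgdh, the entry enzyme of serine synthesis, at -0.23 ± 0.08 (adjusted p = 0.121), and Sardh at -0.21 ± 0.08 (edgeR, adjusted p = 0.145). Metap1d, the mitochondrial methionine aminopeptidase, was the gene higher in males, at 0.22 ± 0.09 (SE, edgeR, adjusted p = 0.168). Since each list gave the 2 genes with its smallest p, however large, Asns, Chac1, Psph, Mars2, Dmgdh, Lipt1, Lipt2, Slc6a5 and Slc6a9 are also named. Their adjusted p lay between 0.15 and 0.953 (edgeR). Dmgdh, Lipt1 and Lipt2 had unadjusted p of 0.873, 0.496 and 0.487 (edgeR).

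Marker genes of other cell types were compared beside these results. Of 54 markers in 10 lists, 0 passed the threshold for diet and 2 had an unadjusted p under 0.05, Ttr at -1.19 (edgeR, unadjusted p = 0.0212) and the meningeal gene Ogn at 0.60 (edgeR, unadjusted p = 0.0109). Summed astrocyte markers, led by Slc1a2, ranged from 4856 to 5560 CPM in CD and from 5236 to 5624 CPM in FD mice. Neuronal markers, led by Snap25, summed to between 6645 and 7308 CPM in CD and between 6530 and 7385 CPM in FD mice. Choroid plexus markers, led by Kl, summed to between 35.6 and 89.7 CPM in CD and between 31.0 and 43.9 CPM in FD mice. Kl itself stayed between 21.8 and 25.0 CPM over the 11 mice, whereas Ttr ranged from 3.35 to 54.7 CPM. Meningeal markers, led by Dcn, summed to between 87.0 and 212.9 CPM in CD and between 117.8 and 328.4 CPM in FD mice. The log2 fold change for diet was above 0 for 1 of 7 choroid plexus markers (median -0.09). It was above 0 for 7 of 7 meningeal markers (median 0.36). The part of these markers in the diet values of Mthfd2l and of the ratio of Mthfd1l to Mthfd1 was not tested. Summed microglial markers, led by Csf1r, ranged from 212.2 to 249.8 CPM over the 11 mice, endothelial markers, led by Flt1, from 97.6 to 139.3 CPM, blood markers, led by Hbb-bs, from 9.92 to 44.97 CPM and thalamic markers, led by Rora, from 108.4 to 130.1 CPM. Markers past the threshold between the sexes included Slc1a2, Ogn and Zbtb20, higher in males, and Gfap and C1qa, lower in males.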

How the data were processed

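RNA-seq counts of 11 mice were analysed. The paper states that reads (single end) were trimmed, aligned with STAR to mm10 (GRCm38) and counted per gene, as unique alignments, with featureCounts. Raw counts per mouse were deposited, with no normalization. Summary lines for reads not assigned to a gene, between 24.4% and 26.9% of a table's total, were left out. These lines have the form that the program HTSeq writes, so the counting program is not settled in the sources used here. The annotation release and the strand setting are not given in the sources used here. Groups, sexes and replicate numbers came from the labels. Of 38293 identifiers, 36345 (94.9%) matched the GENCODE annotation of GRCm38, from which names and lengths were taken.

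Genes with at least 10 counts in total were kept (20589) and compared with edgeR 4.0.16 (R 4.3.3, TMM, quasi-likelihood test, threshold 0.1 on the adjusted p, as in the study). Diet was fitted without covariates, sex with diet, and the interaction with both. CPM are TMM-normalized, log2 CPM had a prior count of 2, and ratios had 0.5 added to each count. Exact permutation tests of single values used all 462 splits, which allow no p under 0.00216. Copies of members were sought with blastn 2.17.0+, and Python 3.11.15 with scipy 1.17.1 made the other tables. Scripts were tested on simulated data. No 2 mice of a group agreed within sampling noise (chi-square per degree of freedom 4.39 or more).

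Deviations from the group means correlated over genes between mice with the same sex and number (r between 0.429 and 0.683 in the 5 pairs). Mice of the same sex with different numbers were not compared, so these values cannot show that the numbers pair the mice. After centring within sex as well, r was -0.0059, 0.548 and 0.361 for females 1, 2 and 3. For males 1 and 2 it was -0.0853 and 0.130. The labels do not say that the numbers match mice across the diets, and the pairing was an assumption.

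Genes named are the 10 members, in each list of pathway genes those 2 with the smallest p for diet and for sex, in each marker list the most abundant gene, the 2 genes most like a member with at least 5 CPM, the partners in ratios, and overlapping or similar genes. Some genes that this rule takes in are not reported here. Further markers were named after their values were seen. The members and all lists were chosen with earlier results of these data known. Alternatives were DESeq2 1.42.0, RLE size factors, other count filters and prior counts, a replicate block, a term for sex, each sex or CD mice alone, other gene lengths and each mouse left out.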

Additional observations from a re-analysis of the deposited data

Results flagged for a closer look

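Among the values of the 10 genes and the 8 ratios, 36 groups of 5 or 6 mice were checked for a mouse whose gap to the nearest other mouse is large for the range of its group, a check that flags about 1 group in 20 by chance. It marked 2. In CD mice, Mthfd2 had 7.82 CPM in female 1, beside 6.19 CPM in the next mouse (gap over range 0.644). In FD mice, Mthfd1l had 18.8 CPM in male 1, beside 16.1 CPM in the next mouse (gap over range 0.822). The FD mean of Mthfd2 was 12.9% above the CD mean in the edgeR fit with all mice, and its log2 fold change rose from 0.17 to 0.26 without CD female 1. The log2 fold change of Mthfd1l was 0.11 with all mice and 0.06 without FD male 1, and the log2 difference of the ratio of Mthfd1l to Mthfd1 was 0.15 without that mouse.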

How the results depend on the processing

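No setting brought any of the 10 genes past the threshold for diet or for the interaction, although depth limits what could be seen, most of all for Mthfd2l. Over all genes, the 14 diet calls became 1 with at least 10 counts in every mouse, 1 in females, 2 in males, 23 with the replicate block, which leaves out CD male 3 (4 calls without that mouse and no block), and between 3 and 12 with a mouse left out. The replicate block also took the count of ratios past the threshold from 1 to 0 (Mthfd1l to Mthfd1, adjusted p = 0.5) and the count of members with an exact permutation p under 0.05 from 1 to 0 (Mthfd2l, p = 0.0625), and 5 pairs allow no p under 0.0625. It was run for diet only, and in the edgeR fit it brought none of the 10 genes past the threshold. The single sex call among the members became 0 in CD mice alone and between 0 and 2 with a mouse left out. The count of members with an exact permutation p under 0.05 for diet, 1 in all mice, was 2 with RLE size factors (Mthfd2l and Mthfd2, p = 0.0455) and between 0 and 1 with a mouse left out, and the count of ratios past the threshold was between 0 and 1. Of the places in the order of levels, 4 changed with the longest annotated and 6 with the longest coding transcript. Signs turned for log2 differences that had not passed a test. For diet, these were Slc25a32 with sex as a covariate (0.0059), paired (0.0035), in females (0.057) and with a mouse left out (-0.081 to 0.052), Gldc in males (0.0048), Mtfmt (-0.018 to 0.10) and Gcsh (-0.048 to 0.017) with a mouse left out. For sex, they were Mthfd2l in CD mice (0.017) and with a mouse left out (-0.11 to 0.050), Mthfd1l likewise (-0.054, and -0.055 to 0.088) and Gldc (-0.059 to 0.0021). Ratios whose sign turned with a mouse left out were Mthfd2 to Mthfd2l (-0.14 to 0.010), Gldc to Gcsh (-0.083 to 6.6e-05) and Shmt2 to Gldc (-0.045 to 0.037). For the interaction, the sign turned with a mouse left out for Mthfd2 (-0.089 to 0.21), Mthfd2l (-0.42 to 0.10), Mtfmt (-0.11 to 0.25), Slc25a32 (-0.23 to 0.033), Gldc (-0.021 to 0.14), Gcsh (-0.050 to 0.12) and Shmt2 (-0.042 to 0.073). The cause was not tested.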
